A study of Mus musculus with 4 samples.

Results

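No RUNX1 peak of the fetal ovary touched the gene body of any of 9 steroidogenic genes. The 9 genes examined, of 26180 genes with curated RefSeq transcripts, were chosen by name for their place in steroid synthesis. They are Star, Cyp11a1, Fdxr, Cyp17a1, Hsd3b1, Hsd17b1, Hsd17b3, Cyp19a1 and Akr1c18. A RUNX1 peak was counted for a gene when the gene had the TSS nearest to the peak edge, when the peak touched the gene body, or when it lay within 50 kb of a TSS of the gene. Of the 9 genes, 0 had a peak in the body and 1, Hsd17b3, was the gene nearest to a peak. Of all curated genes, 30.3% had a peak in the body and 34.6% were nearest to a peak, or 39.1% of the protein-coding ones. By the limit of 50 kb, 6 of the 9 genes had a peak, against 60.2% of all genes, and by any part of the rule it was the same 6 genes, against 61.3%.

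ChIP-seq maps where a protein sits on chromatin by sequencing the DNA that its antibody pulls down from fixed cells. Chromatin came from ovaries of CD1 mouse embryos at E14.5, freed of mesonephros and pooled at 80 to 100 ovaries per ChIP according to the labels (the methods of the study give a higher number), and no group carried an allele or received a treatment. There were 2 RUNX1 ChIP samples, each from 20 to 30 μg of chromatin and 10 μl of antibody, and 2 input samples. The authors merged the replicates before they called 10494 peaks, each 300 bp wide, so each peak has 1 fold over background and 1 p-value with no error, and no comparison between samples was possible. The peak list does not hold the number of reads behind a peak, and with whole ovaries pooled, binding in 1 cell type cannot be told apart from binding in another. No expression was measured here, so the tissue could not be checked against its markers.

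Steroid hormones are made from cholesterol in steps. STAR moves cholesterol into mitochondria, and CYP11A1 cuts its side chain there with electrons that FDXR hands on through a ferredoxin. HSD3B1 turns pregnenolone into progesterone, CYP17A1 makes androgen precursors, the HSD17B enzymes reduce them to the potent hormones, and aromatase, the product of Cyp19a1, turns androgens into estrogens. AKR1C18 removes active progesterone. Granulosa, theca, luteal and Leydig cells express parts of this set, and the nuclear receptors SF1 and LRH-1 are known activators of many of its genes. RUNX1 binds DNA together with CBFB at a short core sequence.

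The peaks shown here are the 3 of the 9 peaks found by the rule that hold a RUNX core and touch no exon of a curated transcript. They are on the forward strand of mm10, the assembly also named GRCm38, from the RefSeq genome. Capitals mark matches on either strand to the sites searched: the RUNX core TGTGGT or TGCGGT, the forkhead site TGTTTAC or TATTTAC, the GATA site AGATAA or TGATAA, the TEAD site GGGAATG or AGGAATG, the NR5A site CAAGGTCA or CAAGGCCA of SF1 and LRH-1, the ETS site CCGGAAGT, the NFY site CCAAT and the CTCF consensus. None of the matches shown overlapped another.
Hsd17b3, chr13:63957206-63957505: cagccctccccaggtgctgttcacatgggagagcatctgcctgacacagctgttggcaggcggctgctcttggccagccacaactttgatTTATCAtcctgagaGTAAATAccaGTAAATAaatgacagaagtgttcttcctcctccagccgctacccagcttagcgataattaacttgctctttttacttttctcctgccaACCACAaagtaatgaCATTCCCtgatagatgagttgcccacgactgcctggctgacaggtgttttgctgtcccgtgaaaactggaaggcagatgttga
Hsd3b1, chr3:98895342-98895641: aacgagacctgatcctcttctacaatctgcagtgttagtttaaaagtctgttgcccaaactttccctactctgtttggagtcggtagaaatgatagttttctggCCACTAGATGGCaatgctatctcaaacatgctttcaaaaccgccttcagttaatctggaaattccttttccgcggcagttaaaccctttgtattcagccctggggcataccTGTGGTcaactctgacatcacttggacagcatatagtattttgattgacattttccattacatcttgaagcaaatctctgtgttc
Hsd17b1, chr11:101095527-101095826: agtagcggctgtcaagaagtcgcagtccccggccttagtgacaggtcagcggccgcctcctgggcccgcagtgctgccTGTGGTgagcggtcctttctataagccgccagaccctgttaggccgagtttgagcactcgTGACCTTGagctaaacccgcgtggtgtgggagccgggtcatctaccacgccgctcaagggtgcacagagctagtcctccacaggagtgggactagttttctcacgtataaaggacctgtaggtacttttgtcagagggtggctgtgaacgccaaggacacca

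For 1 peak, the nearest curated TSS was that of Hsd17b3, whose enzyme makes testosterone from androstenedione, although another peak lay closer to this gene. Hsd17b3 spans chromosome 13 from 64058274 to 64089201 on the reverse strand with 11 exons. The peak lay 131696 bp downstream of its TSS and beyond its end, with its midpoint in no curated transcript. The fold was 8.64 and the p-value 2.88e-17, and 73.1% of all peaks had a lower fold. Of the 10490 peaks on assembled chromosomes, 305 (2.91%) were likewise over 100 kb from the nearest TSS. The Hsd17b3 peak held a RUNX core at bases 203 to 208, forkhead sites at bases 105 to 111 and 115 to 121, a GATA site at bases 91 to 96 and a TEAD site at bases 218 to 224, all on the reverse strand. A RUNX core was found in 39.9% of all peaks and in 70.2% of the 305 distal ones, a forkhead site in 3.24% and 7.87%, a GATA site in 8.33% and 35.4%, and a TEAD site in 7.06% and 13.8%. All of these sites occurred together in 5 of the 10490 peaks, a count made after the matches had been seen. Assignment of this peak rested on the gene models. With predicted RefSeq transcripts included, the nearest gene was Gm30950, 29451 bp away, and none of the 9 genes was then nearest to a peak.

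**Figure D1:**
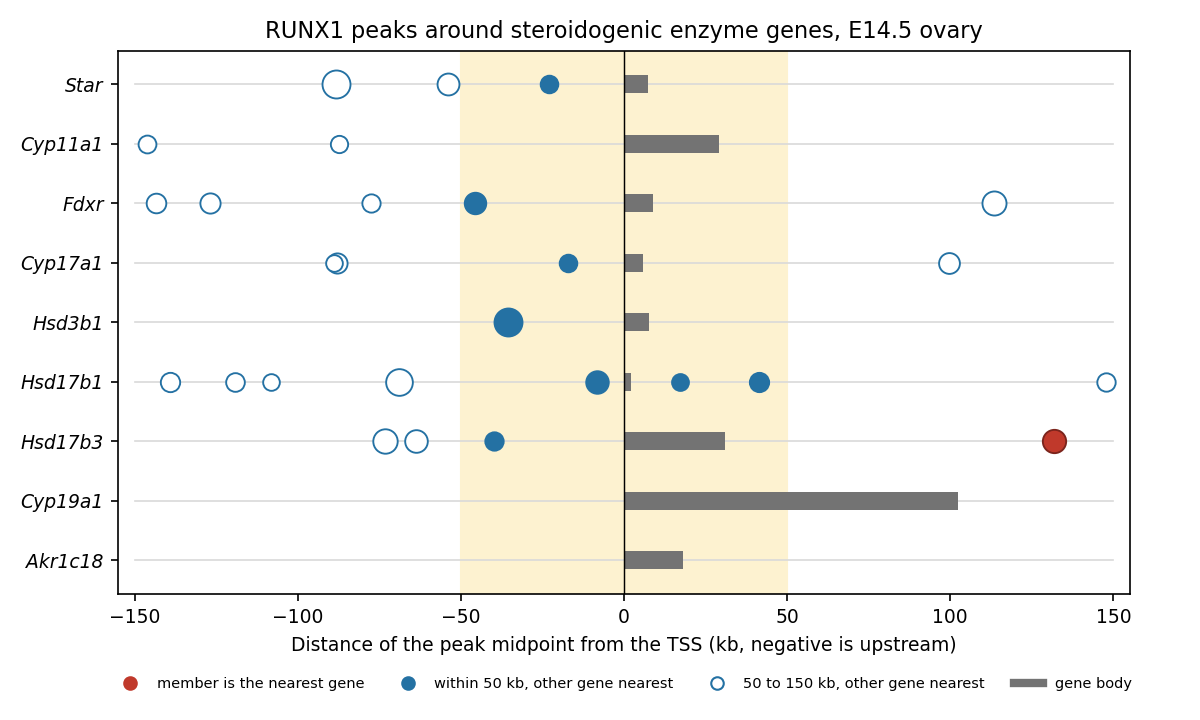
RUNX1 peaks within 150 kb of each gene, by distance of the peak midpoint from the TSS in kb (negative is upstream). For genes with several TSSs, gene bodies (grey) and the shaded 50 kb on either side start from the most upstream TSS. Circle area grows with fold. No circle lies on a gene body, the only peak with a member as its nearest gene (red) is 131696 bp from the TSS of Hsd17b3, and the rows of Cyp19a1 and Akr1c18 are empty.

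The other 8 peaks were within 50 kb of a steroidogenic gene but nearest to the TSS of another gene. Counted with the Hsd17b3 peak, 7 of the 9 peaks lay within 1 kb of that other TSS, and 4 of the 9 covered it. RUNX cores were found in 5 of the 9 peaks, against 39.9% of all peaks. Among all peaks, 76% lay within 1 kb of a TSS, and the share covering one was not counted. The folds of the 9 peaks ran from 4.21 to 12.96 with a median of 5.68, and the median of all peaks was 6.41.

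Star, the gene of the cholesterol transfer protein, spans chromosome 8 from 25808474 to 25815982 on the forward strand and has 7 exons. Its closest peak lay 22923 bp upstream, at chromosome 8 from 25785252 to 25785551, with a fold of 4.63 (p-value 1.79e-16). That peak was 40 bp from the TSS of Lsm1, a gene of mRNA decay. A second peak, at 53838 bp from the Star TSS, fell just outside the limit of 50 kb. The Lsm1 peak held no RUNX core, but 1 ETS site and 1 NFY site.

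Cyp11a1, the gene of the side-chain cleavage enzyme, had no peak by any part of the rule. It spans chromosome 9 from 57998024 to 58027031 on the forward strand, with TSSs at 57998024 and 58014952. The closest peak was 87187 bp upstream of the outer TSS and 149 bp from the TSS of Ubl7, a ubiquitin-like protein gene (fold 4.44, p-value 3.52e-09). The TSSs of Cyp11a1 lay in a stretch of 577659 bp without a peak.

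Fdxr, the gene of the reductase that supplies electrons to mitochondrial cytochromes P450, spans chromosome 11 from 115268025 to 115276969 on the reverse strand with 12 exons. Its closest peak was 45360 bp upstream, just inside the limit, and covered a TSS of Otop2, a proton channel gene. This peak, at chromosome 11 from 115322329 to 115322628, had a fold of 7.22 (p-value 9.46e-21) and held 2 RUNX cores and the CTCF site.

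Cyp17a1, the gene of the enzyme that opens the way from progestins to androgens, spans chromosome 19 from 46667165 to 46673000 on the reverse strand with 8 exons. The peak 16871 bp upstream, at chromosome 19 from 46689871 to 46690170, lay with its midpoint in exon 1 of Borcs7, a gene of lysosome positioning (fold 4.63, p-value 3.60e-13). It held no RUNX core. Of all peaks, 14.8% had a lower fold, a value it shared with the Lsm1 peak near Star.

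Hsd3b1, the gene that makes progesterone from pregnenolone, had the peak of highest fold among the 9 within its 50 kb, although 4 of the others had a lower p-value. The gene spans chromosome 3 from 98852194 to 98859794 on the reverse strand. The peak lay 35548 bp upstream of its TSS and 2112 bp from that of Hao2, a peroxisomal oxidase gene. It had its midpoint in no curated transcript and a fold of 12.96 (p-value 1.06e-16). A lower fold was found in 89.8% of all peaks. Its GC content of 41.7% compares with a median of 66.3% over all peaks. It held the CTCF site at bases 105 to 116 and a RUNX core at bases 216 to 221. The CTCF site was found in 1.35% of all peaks and together with a RUNX core in 0.782%, and 2 of the 9 peaks, this and the Otop2 peak near Fdxr, held both. The search was planned for single sites and not for this pair, and these counts were not tested.

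Hsd17b1, the gene of the enzyme that makes estradiol from estrone in granulosa cells, was the member with most peaks around it. It spans 2117 bp of chromosome 11, from 101078411 to 101080527 on the forward strand, and had 3 peaks within 50 kb. The closest was 8123 bp upstream, at chromosome 11 from 101069989 to 101070288, with its midpoint in exon 1 of Naglu, a lysosomal enzyme gene (fold 8.02, p-value 3.50e-29). It held no RUNX core and 3 NFY sites. The second, shown in full, lay 17116 bp downstream and 92 bp from the TSS of Psmc3ip, a gene of meiotic recombination, and had the lowest fold of the 9 at 4.21 (p-value 4.88e-09). It held a RUNX core at bases 79 to 84 and an NR5A site at bases 139 to 146, a pair found together in 2.59% of all peaks. This pair was likewise not planned. The third lay 41167 bp downstream with its midpoint in exon 1 of Retreg3, an endoplasmic reticulum turnover gene (fold 5.68), and held none of the sites searched. The remaining peak, 39784 bp upstream of the TSS of Hsd17b3, had its midpoint in intron 1 of Slc35d2, a sugar nucleotide transporter gene (fold 5.09, p-value 1.40e-09), and held 1 RUNX core.

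Aromatase and the progesterone-degrading enzyme were the genes farthest from RUNX1 peaks. Cyp19a1 spans 102228 bp of chromosome 9, from 54165937 to 54268164 on the reverse strand, with TSSs at 54193743, 54202216, 54228914 and 54268164. Its closest peak was 233087 bp upstream of the outermost TSS and 76 bp from the TSS of Dmxl2, a vesicle acidification gene (fold 6.79). Only 16.7% of all genes were farther from a peak. Akr1c18 spans chromosome 13 from 4132615 to 4150646 on the reverse strand. Its closest peak was 256974 bp away, downstream, over the TSS of Net1 (fold 4.73), and 15.6% of genes were farther from a peak. The peak-free stretch around Cyp19a1 was 729282 bp long and that around Akr1c18 1967284 bp, and of 10470 stretches between neighbouring peaks 7.1% and 1.98% were longer. These shares count stretches, and a long stretch covers more DNA than a short one. They therefore do not give how often a gene lies in a stretch that long.

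Of the 18 protein-coding neighbours, the closest by TSS on each side of each member, 6 were nearest to a peak. They were Lsm1, Borcs7, Hao2, Naglu and Slc35d2, at the peaks given above, and Ercc6l2, a DNA repair gene, with 2 peaks of fold up to 5.41. This count is close to the 34.6% of all genes and the 39.1% of protein-coding genes nearest to a peak. Coasy, 4154 bp from the TSS of Hsd17b1, was not, and neither were Gldn, 18322 bp from the outermost TSS of Cyp19a1, and Tnfaip8l3 on its other side.

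In order of the closest peak, the genes were Hsd17b1 at 8123 bp, Cyp17a1 at 16871 bp, Star at 22923 bp, Hsd3b1 at 35548 bp, Hsd17b3 at 39784 bp, Fdxr at 45360 bp, Cyp11a1 at 87187 bp, Cyp19a1 at 233087 bp and Akr1c18 at 256974 bp. The median of these distances was 39784 bp, and that over all genes with a peak on their chromosome was 25318 bp. Even for Hsd17b1, 38.8% of all genes had a closer peak. With 1 merged peak list, these distances carry no error, and their difference from other genes was not tested.

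**Figure D2:**
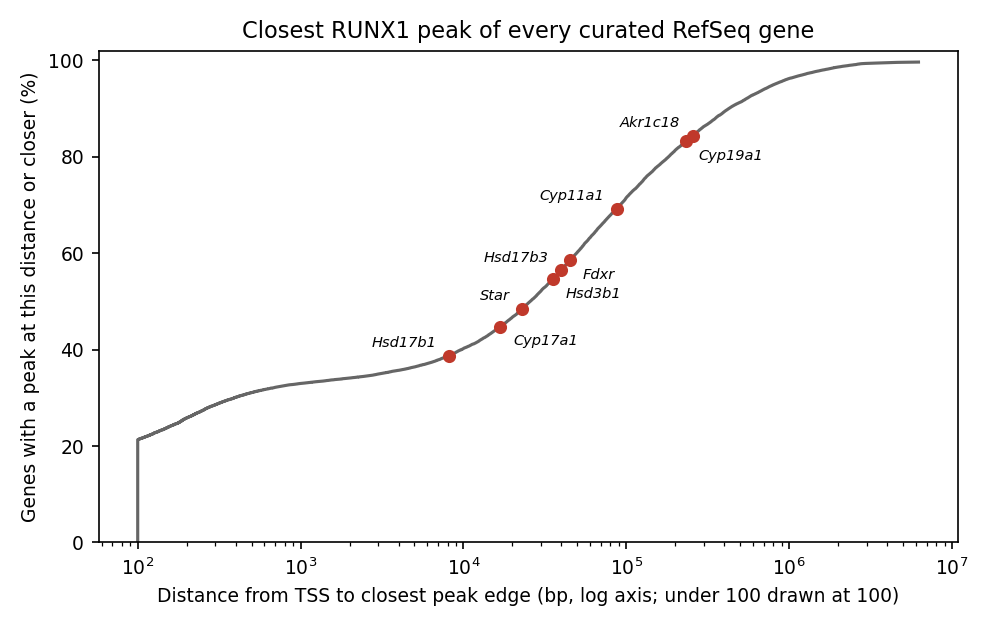
Cumulative share in percent of curated RefSeq genes with a RUNX1 peak at or below a given distance in bp from a TSS (log axis; distances under 100 bp drawn at 100 bp). Red points mark the 9 steroidogenic genes, from Hsd17b1 at 8123 bp to Akr1c18 at 256974 bp. At the former, 38.8% of all genes had a closer peak, and at the latter 84.4%.

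DNA of these genes held RUNX cores outside peaks. The bodies of the 9 genes held 188 cores, from 2 in Cyp17a1 and in Hsd17b1 to 81 in Cyp19a1, with 0 in a peak. From 50 kb before the first to 50 kb after the last TSS of each gene there were 919 cores, 80 to 144 per gene, of which 5 lay in a peak. Cores of the whole genome, and the share of them in peaks, were not counted. Whether these numbers differ from those of other genes was therefore not tested. The authors kept only reads that mapped to a single position, so repeated DNA could give no peak. Words of 75 bases that occur only once in the assembled chromosomes made up 100% of the promoter windows of all 9 genes and between 94.4% (Hsd3b1) and 100% (Cyp17a1, Fdxr and Hsd17b1) of their bodies. In the 50 kb windows the share was 87.6% for Hsd3b1, which lies among its paralogs, and from 96.3% to 99.4% for the other genes. These shares count exact copies, whereas an aligner that allows mismatches treats near copies as repeats too.

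The promoter windows shown here reach from 250 bases before the TSS to 50 after it, from the RefSeq table of GRCm38.p6. They are the 2 member windows with a RUNX core and that of Fdxr, the member window with most CpG. The table held 9 windows of 6 of the genes and none for Star, Cyp17a1 and Hsd17b1. Windows are written along the gene, with the same sites in capitals and, on the gene's own strand, TATAAA.
Cyp19a1, chr9:54228865-54229164, reverse strand: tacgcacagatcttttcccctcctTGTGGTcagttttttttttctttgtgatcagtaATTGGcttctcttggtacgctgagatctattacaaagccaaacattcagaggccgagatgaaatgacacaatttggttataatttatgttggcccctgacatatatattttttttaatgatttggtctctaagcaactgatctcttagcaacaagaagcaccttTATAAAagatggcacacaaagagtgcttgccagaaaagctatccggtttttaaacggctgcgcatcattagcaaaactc
Cyp11a1, chr9:57997774-57998073, forward strand: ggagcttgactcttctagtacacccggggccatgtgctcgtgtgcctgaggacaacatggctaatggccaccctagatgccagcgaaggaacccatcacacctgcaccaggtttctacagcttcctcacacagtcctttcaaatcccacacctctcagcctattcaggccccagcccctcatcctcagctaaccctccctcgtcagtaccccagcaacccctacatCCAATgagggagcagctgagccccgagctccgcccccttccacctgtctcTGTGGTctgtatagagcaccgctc
Fdxr, chr11:115276920-115277219, reverse strand: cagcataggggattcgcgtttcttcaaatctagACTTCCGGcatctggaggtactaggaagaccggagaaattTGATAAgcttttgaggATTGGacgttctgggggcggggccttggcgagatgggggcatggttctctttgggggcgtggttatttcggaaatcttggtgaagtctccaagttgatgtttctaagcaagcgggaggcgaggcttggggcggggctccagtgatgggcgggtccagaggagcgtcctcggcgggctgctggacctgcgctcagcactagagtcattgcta

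No peak lay on these promoters. The Cyp19a1 window, that of the TSS at 54228914, held a RUNX core from -226 to -221 and a TATAAA from -29 to -24, counted from the TSS at 1. The core of the outer Cyp11a1 window lay behind the TSS, from 27 to 32. A RUNX core was found in 21.5% of the 23307 promoter windows in the table and TATAAA in 8%. The Fdxr window held an ETS site from -217 to -210, a GATA site from -177 to -172 and an NFY site from -161 to -157. Of the 9 windows, 1 held an NR5A site, at the outermost Cyp19a1 TSS, against 3.45% of all windows, and 0 held a forkhead site, against 5.55%.

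Most of these promoters were poor in CpG. The CpG ratio, the CpG count over that expected from the C and G counts, was 0.175 for Hsd17b3, 0.18 for Cyp11a1 (mean of 2 windows), 0.193 for Hsd3b1, 0.341 for Cyp19a1 (mean of 3 windows), 0.373 for Akr1c18 and 0.786 for Fdxr. With the 19528 genes of the table cut into 4 bins of like size by this ratio, 3 of the 6 genes fell in the lowest bin, 2 in the second, 1 in the third and 0 in the highest. The share of all genes nearest to a peak was 6.47%, 22.9%, 52.5% and 64.5% in these bins, from low to high. Hsd17b3, in the lowest bin, was the member nearest to a peak, and Fdxr, in the third, was not. With 1 of 3 members in the lowest bin, 0 of 2 in the second and 0 of 1 in the third nearest to a peak, the counts are too small to set against these shares. The part of CpG content in the absence of peaks was not tested.

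**Figure D3:**
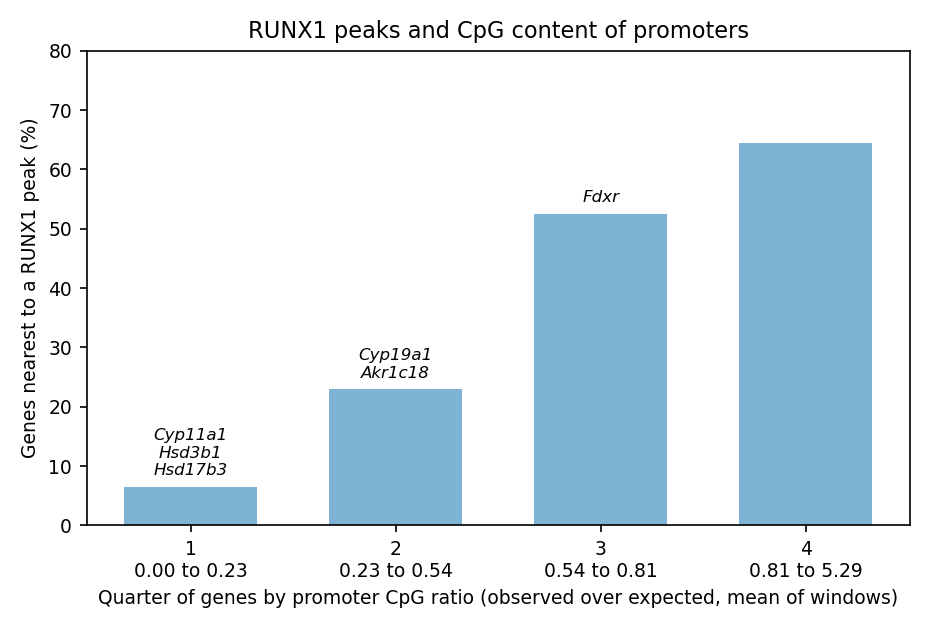
Share in percent of genes nearest to a RUNX1 peak, in 4 bins of 19528 genes by the CpG ratio of their promoter windows (range of the ratio under each bar). Names stand over the bin that holds each of the 6 steroidogenic genes with a window. The 2 lower bins hold 5 of them, where the bars reach 6.47% and 22.9%.

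Outside the 9 genes, 44 of 93 listed genes of the wider pathway were nearest to a peak, or 47.3%. The share was 34.6% for all genes and 39.1% for protein-coding ones. Counted among the 93 are 14 genes of regulators, 10 of them nearest to a peak, which are described at the end. Of 6 genes of electron donors and partners, 4 were nearest to a peak. They included Fdx1, the ferredoxin gene that passes the electrons of FDXR to CYP11A1, whose peak of fold 12.69 lay 15 bp away, and Por, the electron donor of CYP17A1 and aromatase, whose peak of fold 5.22 covered the TSS. Cyb5b had a peak at 7874 bp (fold 5.25) and Cyb5a one over its TSS (fold 4.41). Of 16 genes of cholesterol uptake, storage and transfer, 9 were nearest to a peak, led by Stard6 (fold 12.50), the receptor gene Lrp1 (fold 8.95), the lysosomal export gene Npc1 (fold 8.02) and the efflux gene Abca1 (3 peaks, the highest fold 7.22). Of 22 genes of cholesterol synthesis, 13 were. Hmgcs1, the gene of the enzyme that makes HMG-CoA, was nearest to 2 peaks, of which 1 covered a TSS and the one of higher fold (35.17) lay 26889 bp away. Srebf2 and Scap, which control the pathway, had peaks of fold 9.05 and 7.40, and Fdft1, the squalene synthase gene, one of fold 7.91. These shares, 66.7%, 56.2% and 59.1%, stand beside the 34.6% of all genes and the 39.1% of protein-coding ones. Of the genes with a promoter window, 4 of 4, 7 of 8 and 15 of 17 were in the upper 2 bins of CpG ratio. In these lists 3, 5 and 7 of those genes were nearest to a peak. The shares of all genes in the upper bins were 52.5% and 64.5%.

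The hydroxysteroid dehydrogenases and reductases beyond the members came to 5 of 28 genes, or 17.9%, beside 34.6% of all genes and 39.1% of protein-coding ones. The 28 include the neighbours of Hsd3b1 and Akr1c18 in the peak-free clusters of 6 Hsd3b and 8 Akr1c genes given below. Genes of the same cluster are not separate observations. No gene of either cluster was nearest to a peak, so the share without them would be higher, but it was not counted. The 5 genes nearest to a peak were Srd5a1, the steroid reductase gene that makes dihydrotestosterone (fold 7.40), Hsd17b12 (fold 6.66), Hsd17b14 (fold 5.55, at 4996 bp), Hsd17b11 (fold 5.02) and Srd5a3 (fold 4.46). Among the 23 with a promoter window, 0 of 17 in the lower 2 bins of CpG ratio, most of them in the lowest, were nearest to a peak and 4 of 6 in the upper 2, where the shares of all genes were 6.47% and 22.9% in the lower bins and 52.5% and 64.5% in the upper ones. Most of these 17 genes belong to the Hsd3b and Akr1c clusters. Over all the lists of other genes, 4 of 25 in the lower bins and 26 of 39 in the upper ones were nearest to a peak. Among other steroid hydroxylases and conjugating enzymes, 3 of 8 genes were, namely Sult2b1, a sulfotransferase gene (fold 9.93), Cyp27a1 (fold 6.61) and Cyp1b1 (fold 4.63). That share of 37.5% is close to the 34.6% of all genes and the 39.1% of protein-coding ones. None of these lists was tested against all genes.

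Both gene clusters that hold a member were free of peaks. The 6 Hsd3b genes of chromosome 3 span 360715 bp, from 98499080 to 98859794, with 0 peaks, and their TSSs were 35548 to 249808 bp from the closest one. The 8 Akr1c genes of chromosome 13 span 526953 bp, from 4059591 to 4586543, also with 0 peaks, at distances of 165919 to 680403 bp. Stretches without a peak are frequent, however. Of windows as long as each cluster laid along all chromosomes with peaks, 48.7% and 40.6% held none. These windows overlap, include assembly gaps and were not matched for gene content. They therefore do not give how often a cluster of as many genes lacks a peak.

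**Figure D4:**
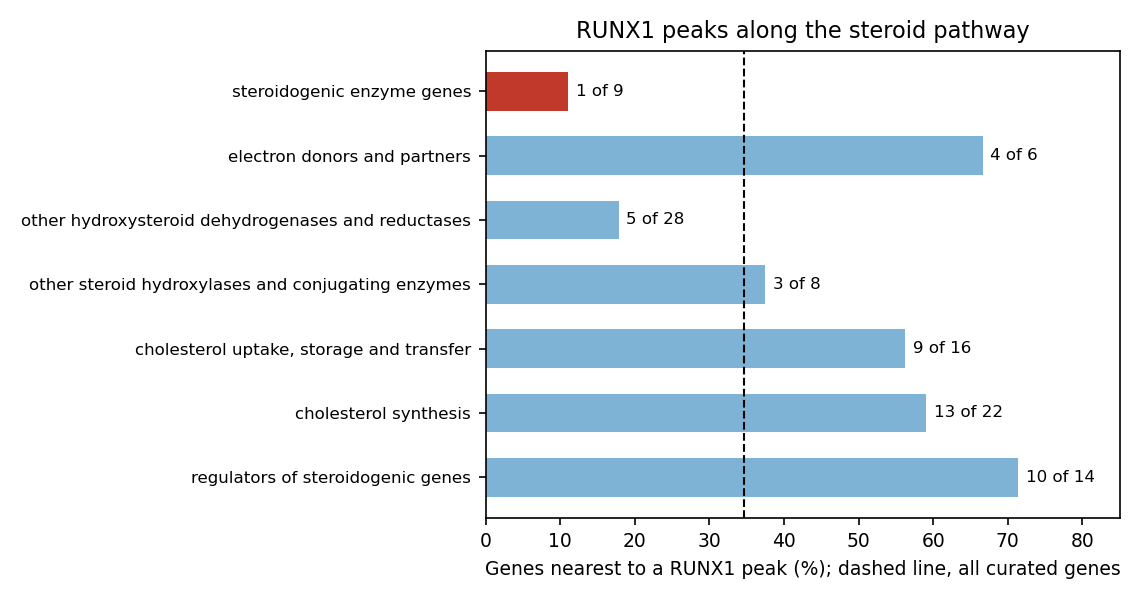
Share in percent of genes nearest to a RUNX1 peak, for the 9 steroidogenic enzyme genes (red) and for lists of other genes of the pathway (blue), with counts beside the bars. The dashed line is the share of all curated genes, 34.6%. The steroidogenic genes (1 of 9) and the other hydroxysteroid dehydrogenases and reductases (5 of 28) lie below it. Many of these 28 genes lie in the Hsd3b and Akr1c clusters, which hold no peak.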

How the data were processed

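RUNX1 ChIP-seq and input libraries of E14.5 ovaries were analysed from 1 peak list. According to the submitters' processing notes and the methods of the study, the authors filtered reads on base quality, aligned the rest with Bowtie 1.2 (mm10, single hits only), removed duplicates with Picard 1.110, merged the replicates and called peaks with HOMER 4.9. They set each peak to 300 bp and kept peaks enriched over input and local signal. The deposited fold is the enrichment given by the authors' peak caller (4.01 to 358.22), and the deposited p-value, at most 2.44e-06, is from the same output. The peak list holds no read counts, so the depth given in the methods of the study was not used here, and binding below the limits of the peak calls is not seen.

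Of 10494 peaks, 4 outside the assembled chromosomes were left out. Gene models were 45756 curated transcripts of 26180 genes (RefSeq, GRCm38.p6), and ties for the nearest TSS were kept. Distances run from the peak edge, and positions count from 1. The words of 75 bases were counted on both strands of the assembled chromosomes. Python 3.11.15, pandas 2.3.3, pysam 0.24.0 and numba 0.67.0 were used, and the assignment was tested on made-up peaks. Alternatives were stricter peaks, other gene models, distances and cores. No set test was made. The members and gene lists were chosen with earlier results of these data known. Genes named are the members, the genes nearest to their peaks, their closest coding neighbours and up to 4 genes per list with the highest folds. Ubl7, Dmxl2, Net1, Gm30950 and Srd5a3 were named outside this rule, after their values were seen.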

Additional observations from a re-analysis of the deposited data

How the results depend on the processing

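The count of members with a peak in the gene body was 0 under every alternative run for it. With only peaks of fold at least 8, 2 members had a peak within 50 kb and 3 by any part of the rule, 3 peaks were assigned, 2 of them with a RUNX core, and 13 of the other pathway genes (44 as reported) and 12.3% of all genes were nearest to a peak. With only peaks of p-value under 1e-20, 0 members were nearest to a peak, 2 had one within 50 kb or by any part of the rule, 2 peaks were assigned, 1 of them with a core, and 16 pathway genes and 13.2% of all genes were nearest to a peak. The share of all genes was 33.7% when distances ran from the peak midpoint, 24.8% with predicted transcripts, where 0 members were nearest to a peak, and 40.8% with protein-coding transcripts alone. A limit of 10 kb left 1 member with a peak within it, 2 by any part of the rule and 2 peaks. A limit of 100 kb gave 7 members and 19 peaks. Shares of all genes within a limit or by any part of the rule were not recounted for stricter peaks or other limits. Those member counts therefore cannot be set against all genes. A longer core, TGTGGTT or TGCGGTT, was in 1 of the 9 peaks, and TGCGGT alone in 1. Stricter peaks and shorter limits lower these counts by construction. No paired analysis was possible because the replicates were merged before peaks were called, and for the same reason no replicate could be left out.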

Other observations

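Of 14 genes listed as regulators of steroidogenic genes, 10 were nearest to a RUNX1 peak, beside 34.6% of all genes and 39.1% of protein-coding ones. Within 1 kb of a TSS, 6 of the 14 had a peak, and the share of all genes at that distance is not given here. Of the 9 with a promoter window, 6 were in the upper bins of CpG ratio, and 5 of these were nearest to a peak. In those bins the shares of all genes were 52.5% and 64.5%, and the difference was not tested. Creb1, the gene of the factor that answers cyclic AMP, had a peak of fold 38.69 over its TSS, and Gata4, a gonadal GATA factor gene, one of fold 12.03 at 41 bp. Lhcgr, the receptor gene of luteinizing hormone, was nearest to a peak 35881 bp from its TSS (fold 11.57). Nr5a2, the gene of LRH-1, was nearest to 3 peaks, the strongest at 120463 bp (fold 9.72), and its closest peak lay at 4387 bp. Named after their values were seen, Nr5a1, the gene of SF1, was nearest to 0 peaks, with the closest at 53480 bp, as was Fshr, the receptor gene of follicle-stimulating hormone, with the closest at 444542 bp.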
